A study of Rattus norvegicus with 12 samples.

Results

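The insulin-like growth factor (IGF) axis was followed in the ventral prostate of rats as 10 genes: the ligands Igf1 and Igf2, the receptors Igf1r and Igf2r, and 6 binding proteins, Igfbp2 to Igfbp7. They were chosen by name, all 10 were measured among the 14506 genes with a level, and each was read by 1 probe set annotated to that symbol alone. Adult male Wistar rats, 90 days old, were used in 4 groups of 3 arrays, and the ventral prostate was taken 3 days after treatment. Control rats were intact and received corn oil as vehicle. Castrated rats had their testes removed under anaesthesia, for which the labels give ketamine at 150 mg/kg with xylazine at 10 mg/kg. The estradiol group consisted of intact rats that received estradiol, 25 mg/kg dissolved in corn oil, on 1 occasion, and the combined group was both castrated and given that dose. The labels do not say whether rats that were only castrated received vehicle, and surgery with its anaesthesia cannot be told apart from loss of the testes. The design text names 48 rats without saying which of them the 12 arrays stand for. The p-values thus refer to the spread among arrays, part of which may be technical.

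IGF1 and IGF2 are secreted peptides that act through the receptor tyrosine kinase IGF1R, which signals through insulin receptor substrates to the PI3K-AKT and MAP kinase pathways and favours growth and survival. IGF2R, also the mannose 6-phosphate receptor, takes up IGF2 for degradation and sorts lysosomal enzymes. The binding proteins hold the ligands outside the cell and set how much of them reaches the receptor, and some are cut by proteases that free the ligand. In the prostate, stromal cells are a main source of IGF1 and epithelial cells carry its receptor, and the axis has long been studied as one way in which androgen and stroma support the epithelium.

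After these treatments Igfbp7 was the only member called in a comparison between groups (adjusted p of at most 0.05) in the main fit. The main fit used the deposited values of all 12 arrays with equal weight and did not pair arrays by number. Some other fits also called Igf1r or further members, as given below. Igfbp7 fell in intact rats given estradiol, by 1.02 on the log2 scale (a difference of 1 is a 2-fold change). Igf1r was higher on all castrated and all combined arrays than on any control array, by 0.64 and 0.63. In the main fit it did not pass the threshold of 0.05 for the adjusted p. Against control, 0 of the 10 members were called after castration, 1 after estradiol and 0 after the combined treatment, whereas 5.54%, 7.99% and 4.32% of all genes were called. These tests were limma's moderated tests over all genes with Benjamini-Hochberg adjustment, as were all adjusted p-values given here. An unadjusted p under 0.05 was found for 2, 4 and 2 members, and for 2335, 4386 and 2126 of all 14506 genes. The median difference of the members was -0.04, 0.00 and -0.02, beside 0.01, 0.07 and 0.04 over all genes. In the moderated F test of limma for a difference between any groups, which called 5.47% of all genes, 0 members passed, and Igfbp7 came nearest (adjusted p = 0.0510).

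Separation of the arrays was more frequent than a call, among the members as among all genes. The arrays did not overlap between control and castrated rats for 2 members (32.5% of all genes), between control and estradiol rats for 2 (27.4%) and between control and combined rats for 4 (36.9%). Between the treated groups this held for 1 member in combined against castrated rats (12.3%), 2 in combined against estradiol rats (15.6%) and 1 in estradiol against castrated rats (18.7%).

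**Figure D1:**
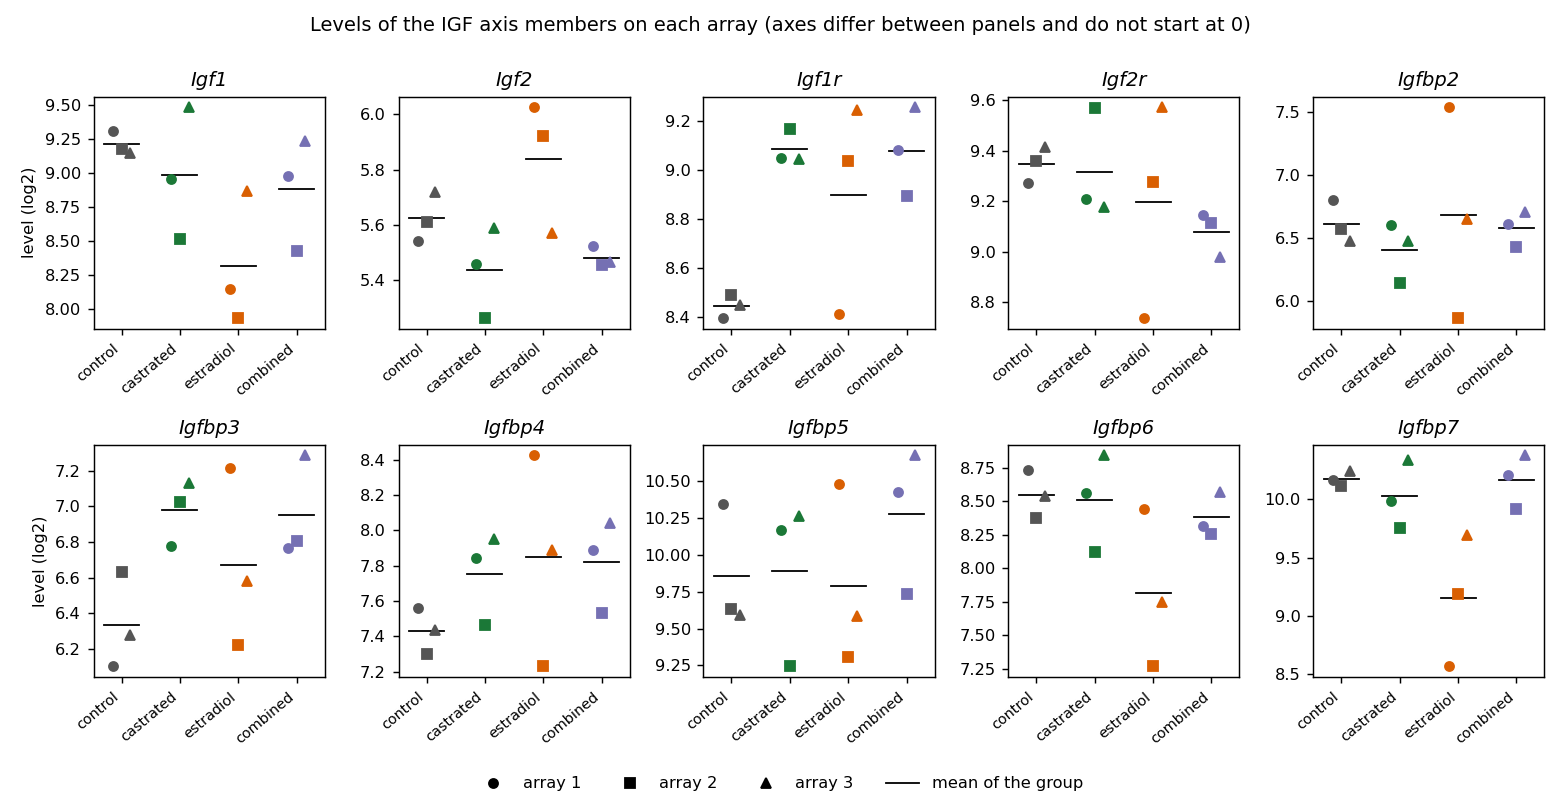
Level of each of the 10 IGF axis genes (vertical axis, log2) on the 12 arrays, with 1 panel a gene, 1 column a group, 1 symbol for each array number and a line at the mean of the group. Igf1r is between 8.40 and 8.49 on the control arrays and at or above 8.89 on the castrated and combined arrays, and Igfbp7 is at most 9.70 on the estradiol arrays.

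Some properties of the whole set of arrays bear on these values. Estradiol arrays 1 and 2 had a narrower spread over all probe sets than the others (SD of 1.93 and 2.01 against 2.24 to 2.30), and the tenth of genes with the highest levels averaged 9.27 and 9.82 on them against 10.0 to 10.1. Estradiol array 3, on which every fit without these arrays rests, stood apart in other ways. The mean level of 5 seminal vesicle and accessory gland genes was 5.19 on it and 3.71 to 4.34 on the other arrays. That of the macrophage markers was 8.15 on it against 7.25 and 7.19 on estradiol arrays 1 and 2. This was within the ranges of the castrated (7.90 to 8.59) and combined arrays (7.70 to 8.18). Leaving it out raised the share of genes called under estradiol from 7.99% to 36.7%. In the fit that weights arrays by their agreement with their group, the 3 estradiol arrays had weights of 0.0879, 0.695 and 0.191 and the others 0.351 to 4.84. The part of these differences in the results was not tested. Pbsn (probasin, whose secretion by the prostate depends on androgen) was at 10.50 to 11.63 on the control, 4.37 to 4.96 on the castrated and 4.88 to 7.45 on the combined arrays. On estradiol arrays 1, 2 and 3 it was at 6.28, 4.82 and 9.71, so that array 3 was the nearest to the controls. The luminal keratin Krt8, a marker of the secretory epithelium, was at or above 10.01 on every array.

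The stretches of DNA before the start sites of Igfbp7, Igf1r and Igf1 are printed because these members had the largest differences against control under estradiol, castration and, among the ligands, estradiol. Each run holds the 250 bases before the RefSeq start in assembly GRCr8, 5′ to 3′ on the gene's strand, at chr14:31091486-31091735 (plus strand) for Igfbp7, chr1:130959747-130959996 (plus strand) for Igf1r and chr7:24172282-24172531 (plus strand) for Igf1. Capitals mark matches, on either strand, to the GC box GGGCGG, the TATA box TATAAA, the androgen response core AGAACA or the oestrogen response core GGTCA, which is also part of the full oestrogen element.
Igfbp7: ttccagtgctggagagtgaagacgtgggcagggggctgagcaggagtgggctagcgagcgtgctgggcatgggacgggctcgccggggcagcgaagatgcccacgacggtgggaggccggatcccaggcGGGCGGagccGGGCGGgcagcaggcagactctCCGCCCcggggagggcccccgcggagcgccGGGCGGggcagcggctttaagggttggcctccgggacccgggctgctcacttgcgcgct
Igf1r: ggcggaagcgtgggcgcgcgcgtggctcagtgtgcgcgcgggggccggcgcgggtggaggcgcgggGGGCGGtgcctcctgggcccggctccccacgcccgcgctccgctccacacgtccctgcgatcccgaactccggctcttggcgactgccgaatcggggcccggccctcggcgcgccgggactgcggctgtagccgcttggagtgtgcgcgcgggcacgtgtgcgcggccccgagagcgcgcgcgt
Igf1: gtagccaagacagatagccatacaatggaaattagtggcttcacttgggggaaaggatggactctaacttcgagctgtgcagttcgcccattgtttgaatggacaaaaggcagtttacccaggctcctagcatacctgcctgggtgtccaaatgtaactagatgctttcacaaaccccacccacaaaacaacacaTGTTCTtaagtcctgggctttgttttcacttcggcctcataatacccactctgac

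These 3 windows differed in base composition. Igfbp7 held 4 GC boxes in 74.4% GC, Igf1r 1 GC box in 79.6% GC with 45 CpG pairs, and Igf1 held no GC box and 3 CpG pairs in 46.8% GC, with 1 match to the androgen response core. Over the 11 windows of the 10 members (Igf2 has 2), 5 held a GC box, 2 the androgen core, 2 the oestrogen core and 1, that of Igfbp4, a TATA box, while 30.5%, 17.5%, 35.4% and 12.9% of all 33469 windows of this length did. The full androgen element (AGAACA, any 3 bases, TGTTCT) and the full oestrogen element (GGTCA, any 3 bases, TGACC) were in 0 of the 11, and in 0.0120% and 0.0239% of all windows. These matches describe the letters of the windows and no binding was measured. In the same gene table Igfbp2 and Igfbp5 are next to each other among protein-coding genes, and Igfbp3 is next to Igfbp1.

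Igf1, the main growth-promoting ligand, had levels of 9.31, 9.18 and 9.15 on the control arrays. On the castrated arrays it was at 8.96, 8.51 and 9.49, on the estradiol arrays at 8.15, 7.93 and 8.87, and on the combined arrays at 8.98, 8.43 and 9.24. All 3 estradiol arrays were below all control arrays, and castrated and combined arrays overlapped the controls. The means were 9.21 ± 0.09 in control, 8.99 ± 0.49 in castrated, 8.32 ± 0.49 in estradiol and 8.88 ± 0.41 in combined rats (mean ± SD, n = 3). The difference between estradiol and control was -0.89 ± 0.28 (SE), with a 95% interval from -1.51 to -0.28, and did not pass (adjusted p = 0.0680). Without estradiol arrays 1 and 2 it was -0.34 (adjusted p = 0.704), and without estradiol array 3 it was -1.17 and passed (adjusted p = 0.00846, in a fit that called 36.7% of all genes). It was called in 3 of 21 alternatives, with adjusted p-values from 0.00846 to 0.704. The differences after castration (-0.23, 95% interval from -0.84 to 0.39) and combined treatment (-0.33, from -0.94 to 0.28) had adjusted p = 0.867 and 0.772.

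Igf2, the ligand prominent in fetal growth, varied little. Its mean level was below the median of all genes, so that the fit without dim genes left it out. Its levels were between 5.54 and 5.72 in control, 5.26 and 5.59 in castrated, 5.57 and 6.03 in estradiol and 5.45 and 5.52 in combined rats. The combined arrays were all just below the control arrays, and the difference was -0.14 (95% interval from -0.48 to 0.19, adjusted p = 0.861). Estradiol differed from control by 0.22 (adjusted p = 0.345) and from castrated by 0.40 (adjusted p = 0.152), in a comparison that called 0% of all genes. These values were, without estradiol arrays 1 and 2, -0.05 (adjusted p = 0.924) and 0.13, so that the sign against control turned.

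Igf1r, the signalling receptor, was at 8.40, 8.49 and 8.45 on the control arrays. It was at 9.05, 9.17 and 9.05 on the castrated arrays and at 9.08, 8.89 and 9.26 on the combined arrays, so that these 6 arrays were all above the controls. The estradiol arrays were at 8.42, 9.04 and 9.24, with array 1 among the controls, array 2 just below the lowest castrated array and array 3 above the highest. Of all genes, 13.3% likewise had all castrated and combined arrays above all control arrays. The means of 8.45 ± 0.05 in control and 9.09 ± 0.07 in castrated rats (SD, n = 3) differed by 0.64 ± 0.19 (SE), a 1.56-fold higher level, with a 95% interval from 0.23 to 1.06 (adjusted p = 0.0751). The combined group differed from control by 0.63 ± 0.19 (from 0.22 to 1.05, adjusted p = 0.0918) and the estradiol group by 0.45 ± 0.19 (from 0.04 to 0.87, adjusted p = 0.138).

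Whether Igf1r passed differed between ways of fitting the arrays. Without estradiol arrays 1 and 2 all comparisons with control passed, with differences of 0.64 after castration (adjusted p = 0.00244), 0.80 after estradiol (adjusted p = 0.0144) and 0.63 after the combined treatment (adjusted p = 0.00298), in fits that called 16.6%, 5.05% and 14.5% of all genes and left a lone estradiol array, assumed to vary like the other groups. The effect of estradiol on Igf1r in castrated minus intact rats was -0.46 with all arrays (adjusted p = 0.456) and -0.81 without these (adjusted p = 0.0487, with 2.71% of all genes called). After quantile normalization, which gives every array the same distribution, Igf1r on estradiol array 1 moved from 8.42 to 8.80, above all control arrays. All comparisons with control then passed as well, with 0.61, 0.65 and 0.65 (adjusted p = 0.0282, 0.0200 and 0.0230), while 5.85%, 6.76% and 4.44% of all genes were called. Igf1r was called after castration in 6 of 21 alternatives, with adjusted p-values from 0.000259 to 0.211, and after the combined treatment in 6 of 21, from 6.15e-05 to 0.369. The castrated and combined groups differed from each other by -0.01, with an interval from -0.43 to 0.41. Cell type markers moved in the same comparisons. Of 20 macrophage and dendritic cell markers 13 rose after castration and 9 after the combined treatment (median differences of 1.44 and 1.19). Of 17 luminal epithelial markers, from the cells that carry the receptor, 6 and 7 rose. In these comparisons 3.17% and 2.12% of all genes were called higher. The macrophage marker Cd68 differed by 1.49 after castration (adjusted p = 0.0682) and Krt8 rose by 1.28. The part of these cells in the levels of Igf1r and Igfbp3 was not tested.

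**Figure D2:**
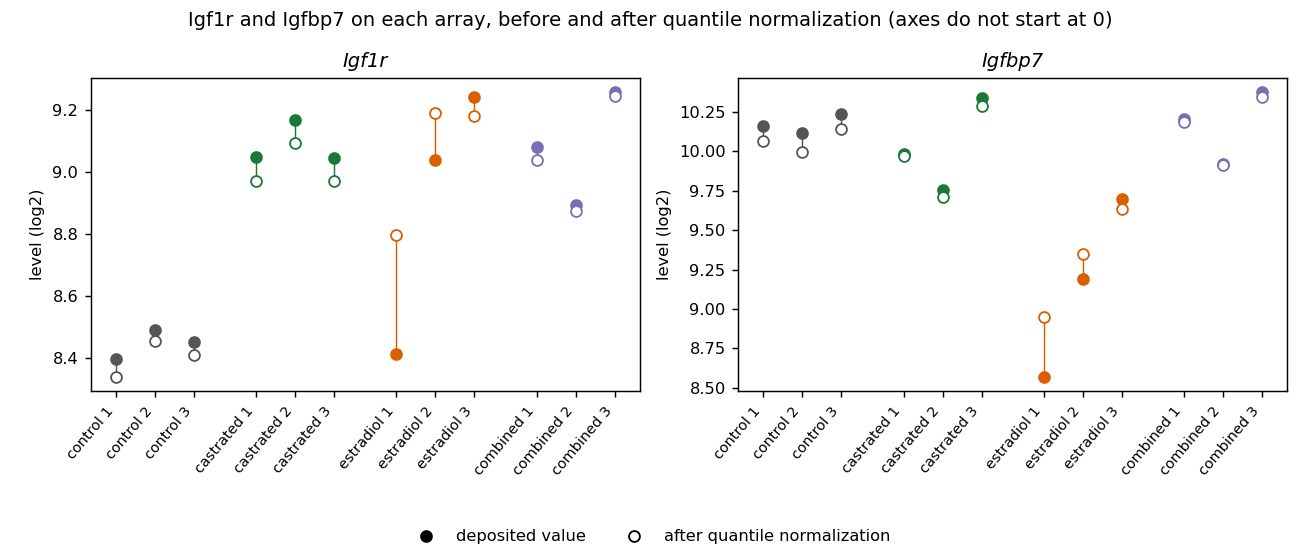
Levels of Igf1r (left) and Igfbp7 (right) on each of the 12 arrays (horizontal axis), as deposited (filled) and after quantile normalization (open), in log2 units. Igf1r on estradiol array 1 moves from 8.42 to 8.80, and Igfbp7 on that array from 8.57 to 8.95, while other arrays move less.

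Igf2r, the clearance receptor for IGF2, was nearly level. Its range was 9.27 to 9.41 in control, 9.18 to 9.57 in castrated, 8.74 to 9.57 in estradiol and 8.98 to 9.14 in combined rats. The combined arrays were all below the control arrays and all below the castrated arrays, with differences of -0.27 (95% interval from -0.69 to 0.15, adjusted p = 0.679) and -0.24 (from -0.66 to 0.19). Estradiol differed from control by -0.15 (adjusted p = 0.596), and by 0.22 without estradiol arrays 1 and 2 (adjusted p = 0.581). Array 1 was the lowest of the 12 for this receptor, and array 3 was above all controls.

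**Figure D3:**
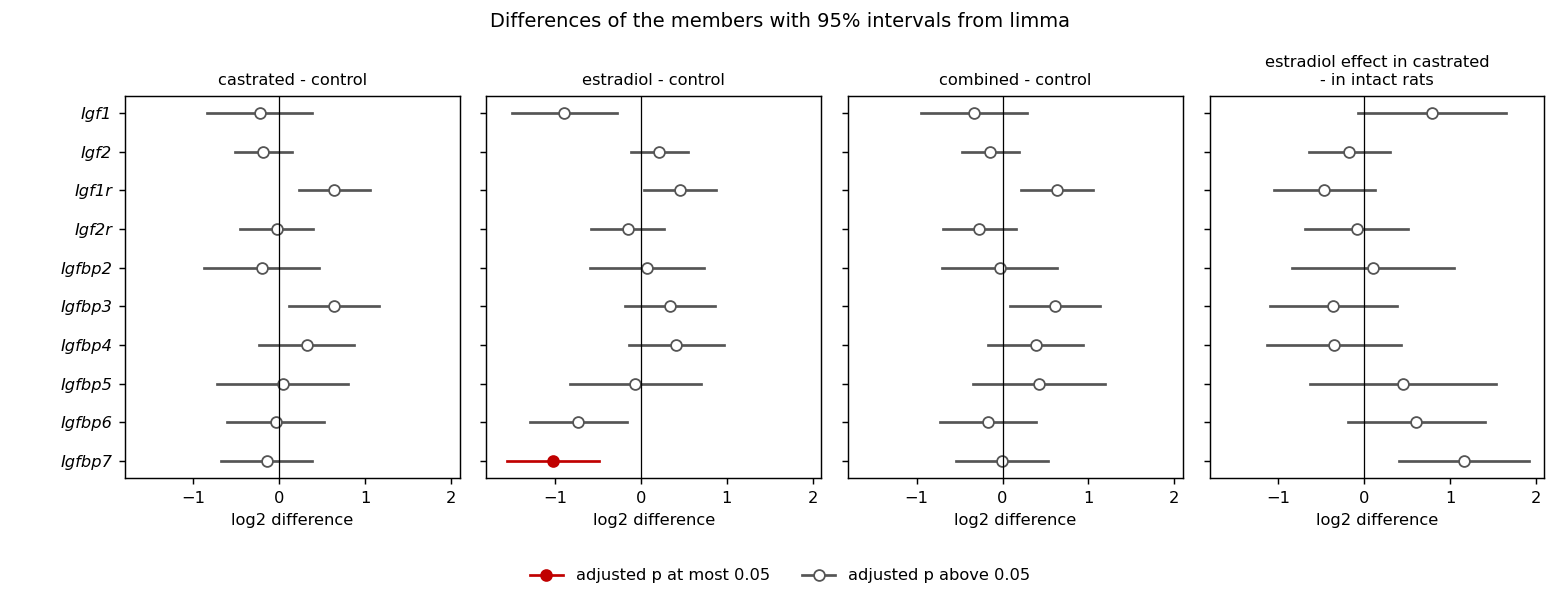
Log2 differences of the 10 members (points) with 95% intervals from limma (lines), for castrated, estradiol and combined rats against control and for the effect of estradiol in castrated minus that in intact rats. The filled point, Igfbp7 under estradiol at -1.02, is the difference that passed an adjusted p of 0.05.

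Igfbp7, a secreted protein of vessel walls and stroma that binds IGFs more weakly than the other members, was at 10.16, 10.12 and 10.24 on the control arrays. The castrated arrays were at 9.98, 9.76 and 10.34 and the combined arrays at 10.20, 9.92 and 10.37, both overlapping the controls. The estradiol arrays were at 8.57, 9.19 and 9.70, below every other array. From 10.17 ± 0.06 in control to 9.15 ± 0.57 in estradiol rats (SD, n = 3), Igfbp7 fell by 1.02 ± 0.25 on the log2 scale (SE, 95% interval of the difference from -1.56 to -0.49, adjusted p = 0.0251), among 5.48% of genes called lower. After castration the difference was -0.15 (from -0.68 to 0.39, adjusted p = 0.922), and after the combined treatment it was -0.01 (from -0.54 to 0.53, adjusted p = 0.998). The combined group was above the estradiol group by 1.02, and the castrated group above it by 0.88, in comparisons that called 0% of all genes (adjusted p = 0.241 and 0.143). The effect of estradiol in castrated rats minus that in intact rats was 1.16 ± 0.35 (from 0.41 to 1.92) and did not pass either (adjusted p = 0.148, 1.10% of genes called).

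The fall of Igfbp7 was called in 15 of 21 alternatives, with differences from -1.30 to -0.48 and adjusted p-values from 0.00190 to 0.292. Without estradiol arrays 1 and 2 it was -0.48 (adjusted p = 0.292) and no longer called, and after quantile normalization it was -0.76 and called (adjusted p = 0.0380). The call also ended without any 1 of the control arrays, without estradiol array 2, and when only control and estradiol arrays were fitted. Markers of cells that line vessels and form the stroma were examined in the same comparison. Of 17 endothelial markers 3 fell and 0 rose under estradiol (17.6%, beside 5.48% of all genes called lower), with a median difference of -0.42, and the endothelial adhesion gene Pecam1 fell by 0.58 (adjusted p = 0.0392). The mean level of that list was 5.97 to 6.24 on the control and 5.67 to 5.78 on the estradiol arrays. Of 16 smooth muscle markers 1 fell (6.25%) and of 21 fibroblast markers 1 fell (4.76%), shares near that of all genes, with medians of -0.42 and -0.39 beside 0.07 over all genes, while the fibroblast receptor Pdgfra differed by -0.53 (adjusted p = 0.0881) and the smooth muscle actin Acta2 by -0.52 (adjusted p = 0.109). Without estradiol arrays 1 and 2, 0 genes of these 3 lists fell by limma's test, with medians of -0.41 for endothelial, -0.30 for smooth muscle and -0.32 for fibroblast markers. In tissue RNA, fewer cells of a type and less RNA per cell cannot be told apart, and the part of these markers in the fall of Igfbp7 was not tested.

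Igfbp3, the main carrier of IGFs in blood and also made locally, was at 6.10, 6.63 and 6.28 on the control arrays. It was at 6.78, 7.02 and 7.13 on the castrated arrays and at 6.76, 6.80 and 7.29 on the combined arrays, all above the controls, while the estradiol arrays, at 7.21, 6.22 and 6.58, overlapped them. The differences were 0.64 ± 0.24 after castration (SE, 95% interval from 0.12 to 1.16, adjusted p = 0.178), 0.61 ± 0.24 after the combined treatment (from 0.09 to 1.14, adjusted p = 0.226) and 0.34 after estradiol (from -0.19 to 0.86, adjusted p = 0.347). Without estradiol arrays 1 and 2 the first of these had an adjusted p of 0.0265 and that of the combined treatment an adjusted p of 0.0359, beside the same 16.6% and 14.5% of all genes. Igfbp3 was called after castration in 4 of 21 alternatives and, unlike Igf1r, not after quantile normalization.

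Igfbp6, which prefers IGF2 over IGF1, was at 8.73, 8.38 and 8.54 on the control arrays and at 8.44, 7.27 and 7.75 on the estradiol arrays. Castrated arrays were at 8.56, 8.12 and 8.84 and combined arrays at 8.31, 8.25 and 8.57. Estradiol array 1 was within the control range and the others were below it. The estradiol group differed from control by -0.73 ± 0.26 (SE, 95% interval from -1.30 to -0.17, adjusted p = 0.0920), and by -1.04 without estradiol array 1, when it passed (adjusted p = 0.0104, with 8.71% of all genes called). The other comparisons with control gave -0.04 and -0.17, with intervals from -0.61 to 0.52 and from -0.73 to 0.40.

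Igfbp5, Igfbp4 and Igfbp2 completed the binding proteins, and 0 of them were called in a comparison between groups in the main fit. Igfbp5, known for its rise in regressing glands, ranged from 9.59 to 10.34 in control, 9.24 to 10.27 in castrated, 9.31 to 10.48 in estradiol and 9.73 to 10.67 in combined rats. Its difference from control was 0.04 after castration (95% interval from -0.73 to 0.80), -0.06 after estradiol and 0.42 after the combined treatment (from -0.34 to 1.19), and its control arrays spread over 0.75, the widest control range of the 10 genes. Igfbp4, a binding protein released from its ligand by the protease PAPP-A, ranged from 7.30 to 7.56 in control, 7.46 to 7.95 in castrated, 7.23 to 8.42 in estradiol and 7.53 to 8.04 in combined rats, with differences from control of 0.32, 0.41 and 0.39 (adjusted p = 0.686, 0.275 and 0.619). Igfbp2 ranged from 6.47 to 6.80 in control, 6.14 to 6.60 in castrated, 5.86 to 7.53 in estradiol and 6.42 to 6.70 in combined rats. Its differences of -0.21, 0.07 and -0.03 had adjusted p-values from 0.890 to 0.996. The 9 intervals of these differences had lower bounds from -0.87 to -0.14 and upper bounds from 0.46 to 1.19. The differences between estradiol and control were, without estradiol arrays 1 and 2, -0.27 for Igfbp5, 0.46 for Igfbp4 and 0.04 for Igfbp2, and 0 of them passed.

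The order of the group means differed between members. Control was highest for Igf1, Igf2r, Igfbp6 and Igfbp7 and lowest for Igf1r, Igfbp3 and Igfbp4. For Igf1, Igfbp5, Igfbp6 and Igfbp7 the estradiol group was lowest, and for Igf2, Igfbp2 and Igfbp4 it was highest. In these orders, 0 pairs of neighbouring groups passed for any member, with adjusted p-values from 0.138 for Igf1r in estradiol against control upwards. Combined and castrated rats, which both lack testes, differed from each other by -0.24 to 0.38 over the 10 members, and 0% of all genes were called in that comparison.

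Several members shared their lowest array within the treated groups. Array 2 was the lowest of its group for 7 of 10 members among castrated rats, 8 among combined and 6 among estradiol rats, but for 3 among control rats, where array 1 was the lowest for 4. Igfbp3 was lowest on array 1 in castrated and combined rats, and Igfbp7 on array 1 in estradiol rats. The mean of the fibroblast and matrix markers was lowest on array 2 in all 4 groups, at 7.11 against 7.55 and 7.17 in control, 7.02 against 7.47 and 7.68 in castrated, 7.10 against 7.47 and 7.51 in combined and 6.78 against 7.06 and 6.95 in estradiol rats. Smooth muscle markers were lowest there too, at 8.43 against 8.66 and 8.48 in control and, in the same order of treated groups, 8.14 against 8.66 and 8.54, 8.36 against 8.43 and 8.85, and 7.83 against 8.38 and 8.19. Macrophage markers were lowest on array 2 in the treated groups, at 7.90, 7.70 and 7.19, and not in control rats. Basal epithelial markers were also lowest on array 2 in all 4 groups (control 6.85, castrated 6.96, estradiol 6.96, combined 7.21). Luminal epithelial markers were lowest there in control, castrated and combined rats, and endothelial markers in castrated and estradiol rats only. Blood, muscle, fat and nerve markers had a mean of 6.38 on castrated array 2, against 5.74 and 5.65 on castrated arrays 1 and 3. The part of these cell types in the spread of the members was not tested.

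Estradiol arrays 1 and 2 lay far apart for 5 of the 6 binding proteins. Igfbp2 was higher on array 1 by 1.67, Igfbp4 by 1.19, Igfbp5 by 1.18, Igfbp6 by 1.17 and Igfbp3 by 0.99. Of the members, 4 were higher there by 1 or more, as were 5.36% of all genes, and 14.1% of all genes were apart by 1 or more in either direction. Igfbp7, Igf1r and Igf2r went the other way, by -0.62, -0.62 and -0.54. The median size of the difference between these arrays over all genes was 0.43. The standard errors of all members except Igf2 (0.155) and Igf1r (0.193) were above the median of 0.195 over all genes. Those of Igfbp2 and Igfbp5 were the largest, at 0.31 and 0.36.

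**Figure D4:**
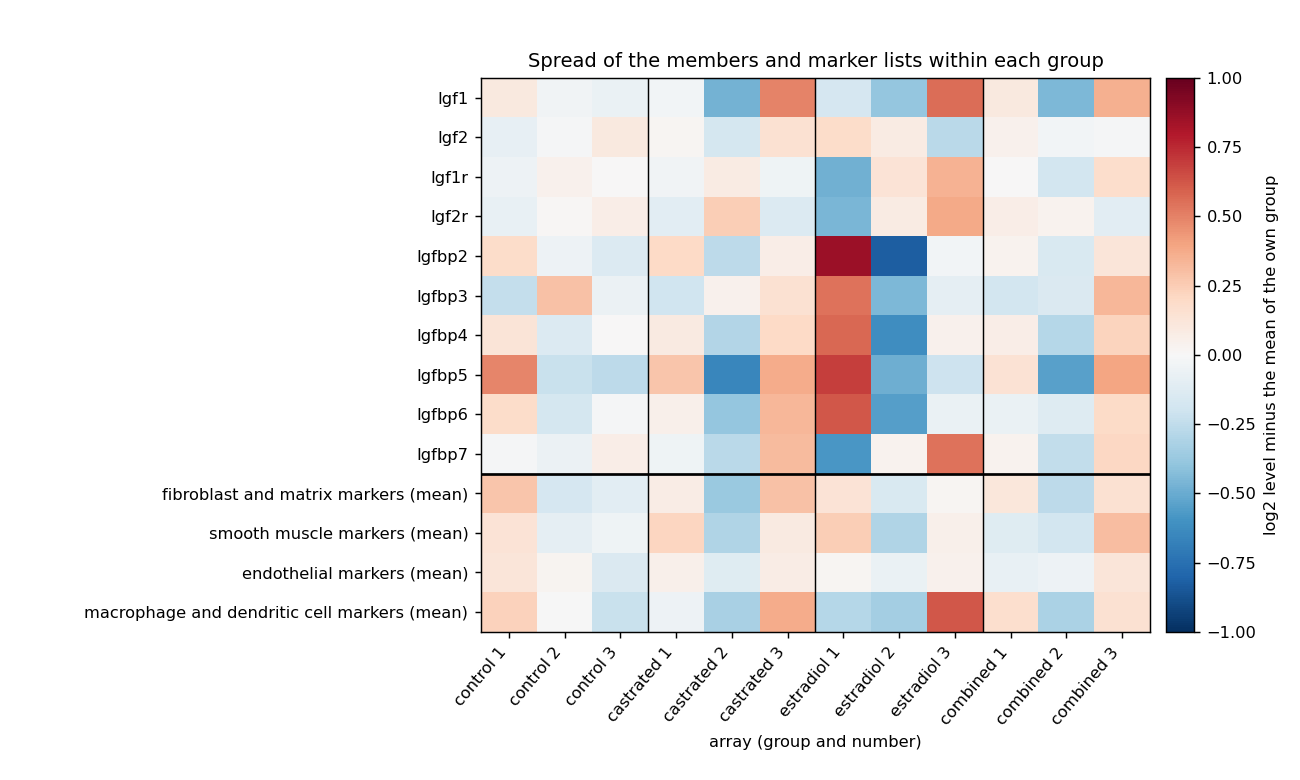
Level of each of the 10 members, and mean level of 4 lists of cell type markers (below the line), on each array minus the mean of its own group, in log2 units (colour). Array 2 is blue for most members in castrated, estradiol and combined rats, and estradiol arrays 1 and 2 have opposite colours for Igfbp2 to Igfbp6.

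Genes that work with the axis were described from lists taken by function. A list of 18 measured partners held other binding proteins, proteases that cut them and the insulin receptor, and also genes such as Igf2bp1 and H19. Of these 18, 1 rose and 0 fell after castration (5.56%, beside 3.17% of all genes called higher). This was urokinase, Plau, a protease that activates plasminogen, with a difference of 1.23 ± 0.22 (SE, adjusted p = 0.00513). Plau rose by 1.36 ± 0.22 after the combined treatment as well (adjusted p = 0.00293) and differed by 0.76 after estradiol (adjusted p = 0.0530). Its levels were 6.01 to 6.64 in control, 7.39 to 7.67 in castrated, 6.63 to 7.34 in estradiol and 7.32 to 7.85 in combined rats, so castrated and combined arrays were all above the controls. In all 21 alternatives Plau was called after castration and after the combined treatment. The partner list had a median difference of 0.00 after castration, 0.13 after estradiol and -0.01 after the combined treatment.

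Of 36 measured genes of signalling below the receptor, 2 rose after castration (5.56%), 4 fell after estradiol (11.1%, beside 5.48% of all genes called lower) and 1 rose after the combined treatment (2.78%, beside 2.12% called higher). Pik3cb, a catalytic subunit of PI3K, rose by 0.97 ± 0.19 after castration (SE, adjusted p = 0.00906), from 8.47 to 8.60 on the control arrays to 9.29 to 9.65, and by 0.85 after the combined treatment (adjusted p = 0.0212). It was called in 20 and 15 of 21 alternatives. Sesn1, a stress-induced restraint on the kinase mTOR, rose by 0.84 after castration (adjusted p = 0.0102), with controls at 5.92 to 6.01 and castrated arrays at 6.80 to 6.83, and was called in 21 of 21. Under estradiol Rps6kb1, the S6 kinase that mTOR activates, fell by 1.25 (adjusted p = 0.0102), from 8.61 to 8.80 on the control to 6.69 to 7.98 on the estradiol arrays. The kinases Map2k1 (-0.82) and Gsk3a (-0.80) and the adaptor Shc1 (-0.60) fell with adjusted p-values of 0.0366, 0.0367 and 0.0452. Of the 21 alternatives, 19 called Rps6kb1, 10 Map2k1, 10 Gsk3a and 5 Shc1 under estradiol. After castration and the combined treatment Rps6kb1 also differed from control, by -0.60 and -0.67 (limma adjusted p = 0.240 and 0.201). Map2k1 differed by -0.68 and -0.59 (adjusted p = 0.0940 and 0.184), Gsk3a by -0.24 and -0.08 and Shc1 by -0.15 and -0.23. Arrays of Rps6kb1, Map2k1 and Shc1 did not overlap the controls in either comparison, as for 32.5% and 36.9% of all genes. Without estradiol arrays 1 and 2, Rps6kb1 was still called under estradiol (-0.72, adjusted p = 0.0218), and Map2k1, Gsk3a and Shc1 were not (adjusted p = 0.426, 0.477 and 0.352). The list had median differences of 0.08, -0.13 and 0.01 in the order castrated, estradiol and combined. Without estradiol arrays 1 and 2 its median under estradiol was 0.07, so that the sign turned. Of 5 measured genes of the CCN family, secreted matrix proteins related in sequence to the binding proteins, 0 were called by limma in any comparison. After the combined treatment 1 had an unadjusted p under 0.05, as had 2126 of all 14506 genes, and after castration or estradiol 0 had.

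**Figure D5:**
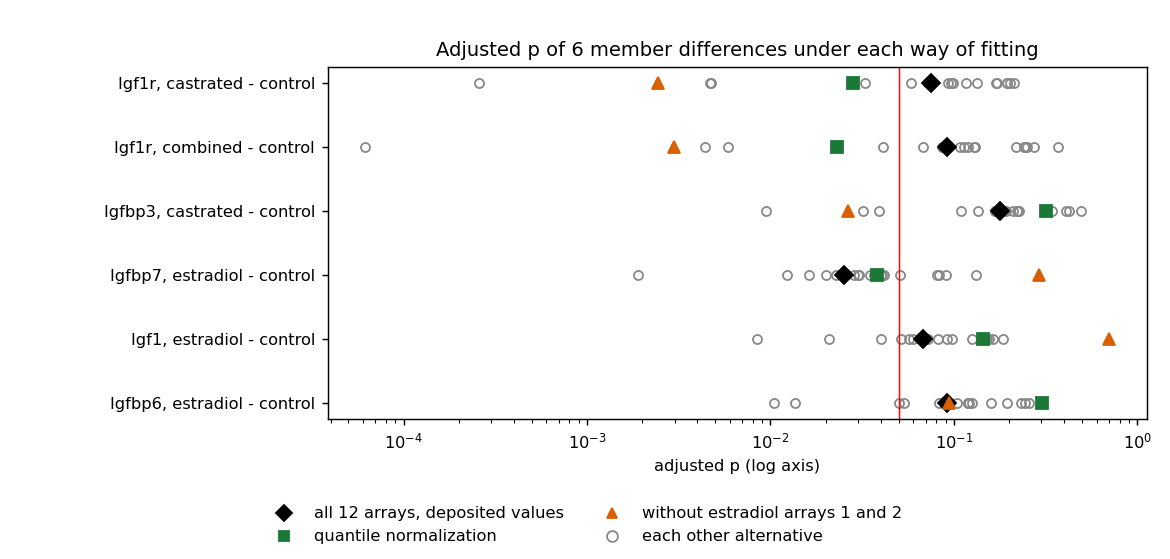
Adjusted p (horizontal log axis, with a line at 0.05) of 6 differences of members under each way of fitting, with the fit of all 12 deposited arrays as diamonds, quantile normalization as squares and the fit without estradiol arrays 1 and 2 as triangles. Igf1r passes under both of the latter, Igfbp3 without these arrays and Igfbp7 after quantile normalization.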

How the data were processed

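Ventral prostate RNA (500 ng from 30 mg of tissue, per the labels' protocols) was labelled as biotinylated cDNA and hybridized to 12 Affymetrix arrays, which were processed with Affymetrix Expression Console, per the submitters' processing notes. The deposited values were taken as log2 levels from their range, and no source used here gives their normalization or log base. Of 29214 probe sets, 15310 had 1 gene symbol, 323 several and 13581 none. Each of the 14506 genes was read by its single-symbol probe set with the highest mean, and all 10 members matched RefSeq by identifier. Limma 3.58.1 in R 4.3.3 was fitted to all genes with 1 mean a group (8 residual and 5.29 prior degrees of freedom), with 2-sided tests and Benjamini-Hochberg adjustment over all genes at 0.05. The procedure was tested on simulated data. Replicate arrays of a group were not identical (median absolute differences of 0.110 to 0.511). The number of arrays, 3 a group, limits the precision. Figures were drawn with matplotlib 3.10.9.

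The members and lists were chosen with earlier results of these data known. The text names all members, up to 4 called genes of each pathway list and comparison with the largest differences, Pbsn, Clu and defining cell type markers, of which Krt5 was not analysed here. The rule would have added the 3 genes most like each member that passed the F test, of which there were 0. Genes like Igfbp7 and Igf1r were named after their values were seen. Same-numbered castrated and estradiol arrays deviated together (correlations of 0.144, 0.284 and 0.197, each over 0.1), a pairing hinted at by the data alone, and the other pairs of groups did not meet that criterion. Alternatives covered array scaling, probe sets, dim genes, arrays fitted, array weights, variance prior, a replicate block and each array left out.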

Additional observations from a re-analysis of the deposited data

Results flagged for a closer look

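Clusterin, Clu, a marker of the regressing prostate used here as a check of the treatments, had effects of estradiol that differed between castrated and intact rats. The interaction was -1.66 ± 0.25 on the log2 scale (SE, limma adjusted p = 0.00615). Clu rose from control by 2.04 after castration, 1.65 after estradiol and 2.03 after the combined treatment. Its levels were 10.58 to 11.03 on the control arrays and at or above 12.24 on all treated arrays. Combined and castrated rats differed by -0.01, with castrated arrays at 12.62 to 12.92 and combined arrays at 12.70 to 12.89. Of the 10 IGF axis genes, 0 passed this test, beside 1.10% of all genes. An unadjusted p under 0.05 was found for 1 of the 10, and for 2056 of all 14506 genes.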

How the results depend on the processing

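With 3 arrays a group and estradiol arrays 1 and 2 apart from the rest, the number of IGF axis genes called moved with the fit. Against control after castration (0 with all arrays) it was 1 after quantile normalization, 2 without estradiol arrays 1 and 2, 3 with array weights and 2 when only the compared groups were fitted, and 0 to 2 with any 1 array left out. After estradiol (1) it was 2 after quantile normalization, 4 with array weights, 2 with the replicate block and 0 with only the compared groups, and 0 to 3 with 1 array left out. After the combined treatment (0) it was 1 after quantile normalization, 2 without estradiol arrays 1 and 2, 5 with array weights, 2 with only the compared groups, and 0 to 1 with 1 array left out. For combined against estradiol (0) and estradiol against castrated (0) array weights gave 1 and 3, and leaving out 1 array gave 0 to 3 in each. The interaction (0) had 1 without estradiol arrays 1 and 2, 1 with array weights and 0 to 1 with 1 array left out. The F test (0) had 1 after quantile normalization, 1 without dim genes, 1 without estradiol arrays 1 and 2, 7 with array weights, 1 with the replicate block and 0 to 4 with 1 array left out. Combined against castrated stayed at 0 in all 21 alternatives. With array weights 26.1%, 15.9% and 28.5% of all genes were called against control, in the order castrated, estradiol and combined. With only the compared groups these shares were 12.9%, 1.36% and 19.8%. The F test called 36.6% of all genes with array weights and 34.1% without estradiol array 3. Combined against estradiol called 3.37% and 28.6% in these fits, estradiol against castrated 11.2% and 37.3%, and the interaction 7.25% and 11.6%.

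The deviations of same-numbered arrays from their group means correlated at -0.156 to 0.284. All 3 correlations were over 0.1 between castrated and estradiol arrays, where the replicate block left 0 members called, and at least 1 was not for every other pair of groups. An array correlated best with its own number in 21 of 36 cases, in all 6 between castrated and estradiol arrays. This also held for 3 of 3 castrated arrays among the combined arrays, and for 2 of 3 in reverse. The cases share arrays, and their number was not tested. With the number as a replicate block, Igf1 passed under estradiol (-0.89, adjusted p = 0.0209) beside Igfbp7 (adjusted p = 0.0123). Of 70 differences of members, 49 were called in no setting and 0 changed sign while called. Another sign in at least 1 alternative, without a call, was seen for 30 of them, all of a size of at most 0.34 in the fit of all arrays. The cause of these changes was not tested.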

Other observations

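The 3 genes whose profile over the 12 arrays was closest to that of Igfbp7, each gene centred on its own mean, were Rap1b, a small GTPase, Mxra8, a membrane protein of stromal cells, and Foxn3, a transcription factor, with root mean square differences of 0.131, 0.139 and 0.153 in log2 units. For Igf1r they were Exd2, a nuclease, Smc6, a subunit of a DNA repair complex, and Oxr1, an oxidative stress resistance gene, with 0.103, 0.113 and 0.115. These genes were singled out after the values were seen, and all share the arrays and their scaling.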
